A study of Homo sapiens with 6 samples.

Results

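Tight junctions, desmosomes, gap junctions and simple-epithelium keratins are part of what makes a pancreatic beta cell an epithelial cell, and the RNA of 61 genes of this kind was followed in EndoC-βH1, an insulin-secreting human beta cell line immortalised from fetal pancreas. The genes were taken by name: every row of the count table whose symbol is CLDN followed only by digits, which gave 24 claudins, and 37 listed genes of tight junction strands and plaques, cell polarity, desmosomes, keratins, epithelial transcription factors, trefoil peptides and connexins. All 61 were found among the 26485 genes of the table. The rule used names and not values, but the genes were chosen with earlier results of these data known.

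The study compared 3 libraries labelled sgZHX3-3 with 3 labelled Empty by bulk RNA sequencing. The cells labelled sgZHX3-3, whose genotype label is ZHX3 KO, received lentiCRISPRv2 with 1 guide RNA against the first coding exon of ZHX3, a zinc finger and homeobox transcription factor gene. The cells labelled Empty, with the genotype label WT, received lentiCRISPRv2 without a guide. Both groups therefore carried the vector with its Cas9 nuclease and antibiotic resistance gene, were antibiotic-selected, and were grown as stable lines. The labels number 3 biological replicates a group but do not say whether these are separately made lines or repeat cultures, so the p-values measure the spread between these samples, which may be partly technical.

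A tight junction seals the space between neighbouring epithelial cells. Claudins and the MARVEL proteins (occludin, tricellulin) form its strands, the JAM proteins lie beside them, and a cytoplasmic plaque of ZO proteins and cingulins ties the strands to actin, while the PAR and Crumbs complexes set where along the cell the junction forms. Desmosomes fasten neighbouring cells through keratin filaments, and gap junctions, which in beta cells are made mainly of connexin 36, couple the electrical activity of islet cells.

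ZHX3 RNA did not fall in the libraries labelled as its knockout. It was at 167, 179.98 and 183 CPM (counts scaled to library size by TMM) in the libraries labelled sgZHX3-3, against 106, 109.6 and 101 CPM in Empty, a log2 fold change of 0.75 (SE 0.0566, adjusted p = 1.62e-05 by edgeR's quasi-likelihood test with Benjamini-Hochberg adjustment over 16199 genes). The edit in the DNA was not analysed here, so every direction below is that of libraries named by their label. Depth ran from 45101454 to 61051884 counts a library, and edgeR's common coefficient of biological variation was 6.91%. The cells expressed beta cell markers, with insulin (INS) at a mean of 6431 CPM in the libraries labelled sgZHX3-3 and 5656 CPM in Empty. INS itself did not pass (edgeR adjusted p = 0.219), and its groups overlapped. Of the 10 markers on that list 7 were higher and 0 lower, with a median log2 fold change of 0.41. Among all genes tested 7.11% were higher and 4.98% lower. The part of these markers in the results below was not tested. Of 8 acinar markers only CPA1 was abundant enough to test, and it was higher, at means of 43.5 and 35.1 CPM (log2 fold change 0.31, edgeR adjusted p = 0.0145), while PNLIP and REG1A had 0 counts in all 6 libraries. The endothelial genes CDH5, KDR and PLVAP and the duct gene MMP7 also had 0 counts. The duct gene SOX9, at means of 17.4 CPM in the libraries labelled sgZHX3-3 and 15.4 CPM in Empty, and the mesenchymal gene COL1A1, at 6.42 and 5.68 CPM, did not pass, and vimentin was at 0.0878 and 0.0937 CPM. A 10-gene list of heat shock and NRF2 response genes, summed per library, was at 1038, 1098 and 977 CPM in the libraries labelled sgZHX3-3, against 1307, 2162 and 2431 CPM in Empty 1, 2 and 3, and 6 of its 10 genes were lower and 0 higher. Empty 2 and 3 thus stood apart from Empty 1, and results were recomputed without these 2 libraries.

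Most of the epithelial genes did not pass the test between the groups. Of the 61 genes, 46 had enough counts to be tested, 9 had a few counts and were too low, and 6 had none in any library. Among the 46, PARD3, CGNL1 and CLDN9 were higher in the libraries labelled sgZHX3-3, and TFF1, TFF3 and CLDN12 were lower. That is 6.52% higher and 6.52% lower, beside a background of 7.11% higher and 4.98% lower among all 16199 genes tested, or 13.0% beside 12.1% in either direction, so the share of epithelial genes called was near that of genes at large. The median log2 fold change of the 46 genes was −0.01, beside −0.00 over all genes tested, with 22 values above 0 and 24 below. Without the second library labelled sgZHX3-3, Empty 2 or Empty 3, only 1 gene, TFF1, was lower. The 3 libraries of one group lay wholly above or below the 3 of the other for 18 of the 46 genes (39.1%, against 32.0% of all genes tested). For 33 of the 46 genes (71.7%, against 71.2% of all genes tested) the 95% interval of the log2 fold change lay within 0.5 of 0. In bulk samples, fewer cells of a type and less RNA per cell cannot be told apart.

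**Figure D1:**
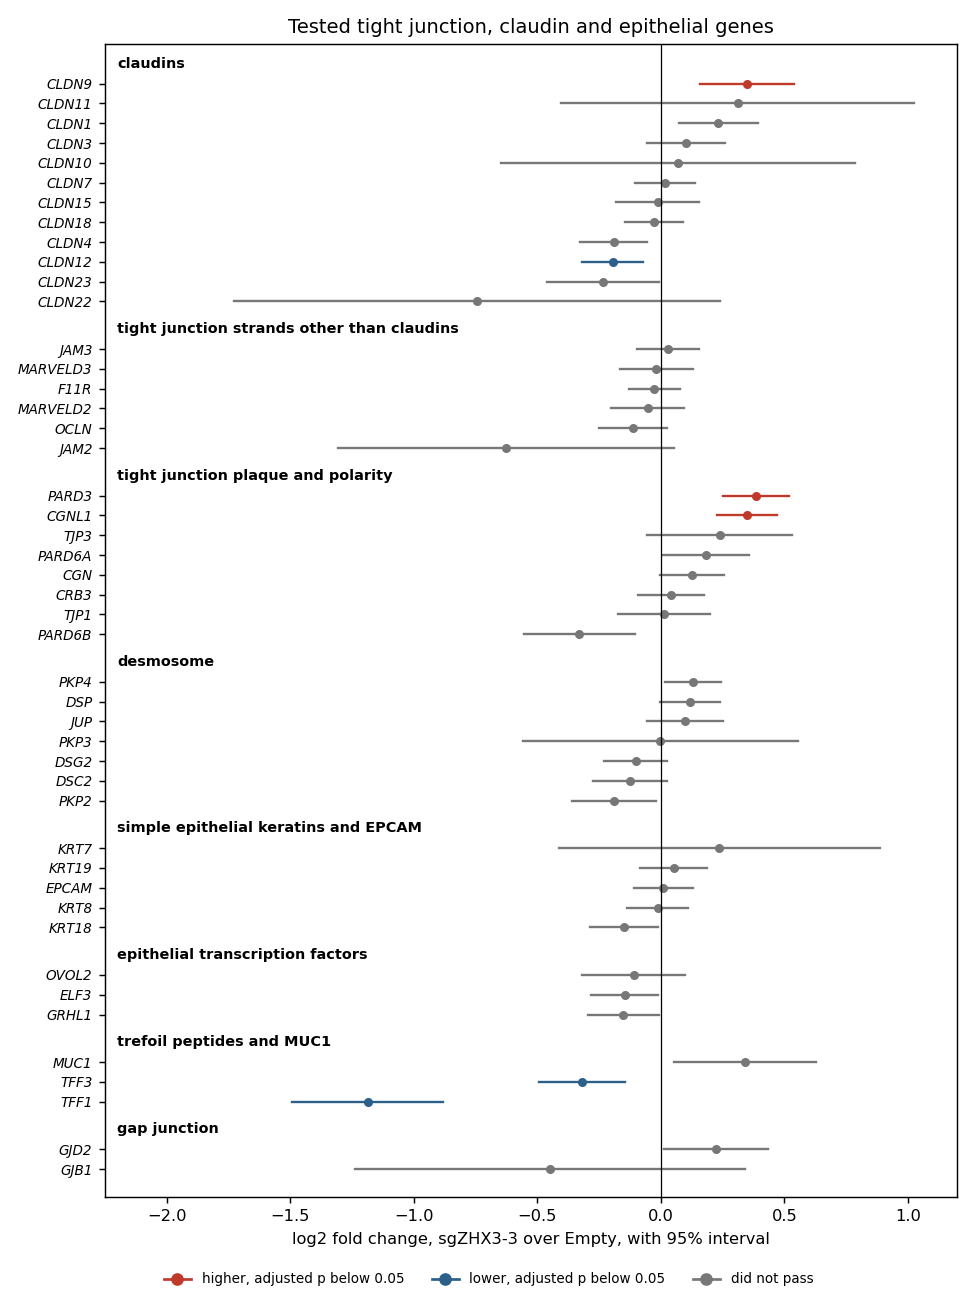
Log2 fold change (sgZHX3-3 over Empty, 3 libraries each) of the 46 tested genes by group of function, with bars for the 95% interval; red marks genes higher and blue genes lower at an adjusted p below 0.05, and grey genes did not pass. Most intervals lie close to 0, the widest belong to genes of few counts such as CLDN22, and TFF1 lies furthest from 0 among the genes that passed.

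Claudins differ in whether they tighten the junction or leave ion-selective pores, so the set a cell uses matters for its barrier. EndoC-βH1 used few of them at high levels. On the scale of CPM per kilobase of transcript, CLDN7, a claudin of many epithelia that binds EPCAM, was the most abundant, at 188, 189 and 194 in the libraries labelled sgZHX3-3 and 202, 178 and 183 in Empty. The 2 groups overlapped, and CLDN7 alone made up 48.8% ± 0.544 of the summed claudin level in the libraries labelled sgZHX3-3 and 48.3% ± 0.773 in Empty (SD, n = 3 each). CLDN3, a sealing claudin, came second at 60.0, 63.5 and 70.9 CPM per kilobase in the libraries labelled sgZHX3-3 and 65.8, 56.5 and 59.3 in Empty. CLDN18, best known from stomach and lung epithelium, followed at 52.0, 51.0 and 53.3 in the libraries labelled sgZHX3-3 and 56.2, 52.6 and 50.6 in Empty. In the annotation CLDN7 overlaps AC003688.1 by 2187 bases on the same strand, so its counts could hold reads of that gene or miss some. CLDN7, CLDN3 and CLDN18 together with CLDN12 and CLDN15 held most of the claudin RNA in both groups.

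Below these came CLDN12 at a mean of 37.2 CPM per kilobase in the libraries labelled sgZHX3-3 and 42.6 in Empty, and CLDN15, a pore-forming claudin of the intestine, at 21.0 and 21.2. CLDN4, a sealing claudin and receptor for a bacterial enterotoxin, was at 8.43 and 9.63, CLDN1, needed for the skin's water barrier, at 6.16 and 5.24, CLDN9, which serves in the inner ear, at 5.64 and 4.44, and CLDN23 at 3.26 and 3.83. Among these 9 claudins, neighbours in the order did not overlap between their libraries within a group, with 1 exception in the libraries labelled sgZHX3-3: CLDN1 (5.71 to 6.54) and CLDN9 (5.25 to 6.09) overlapped there and did not in Empty. Then came a gap of nearly an order of magnitude to CLDN10 (0.362 and 0.352), CLDN11 (0.181 and 0.145) and CLDN22 (0.0637 and 0.108). CLDN22 lies inside WWC2 on the opposite strand, and how the counting treated strand is unknown here, so its few counts are uncertain. The order rests on 1 transcript length per gene, that of the longest principal transcript in GENCODE 29.

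**Figure D2:**
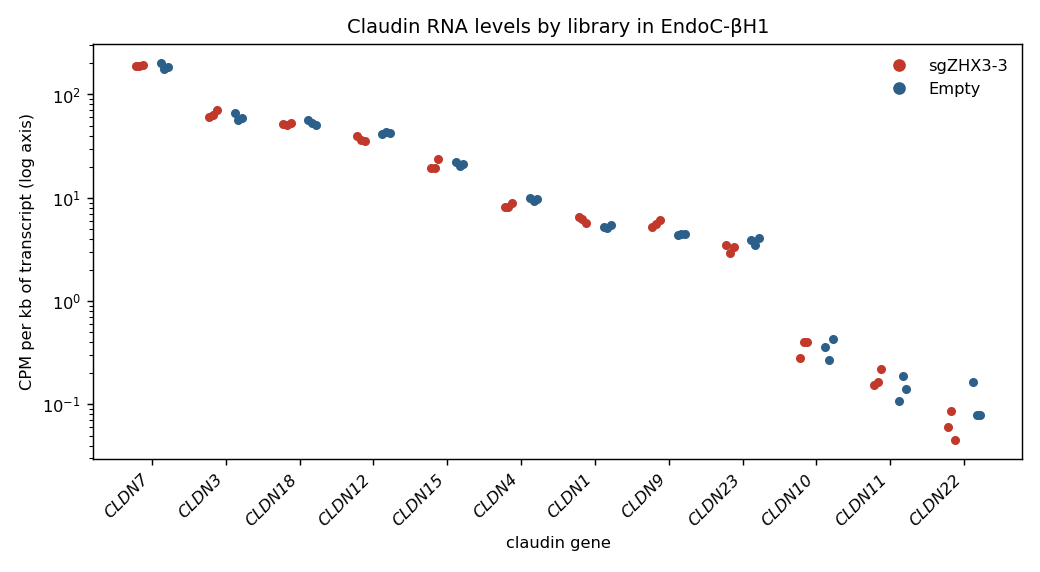
RNA level of the 12 tested claudins in each of the 3 libraries labelled sgZHX3-3 (red) and the 3 labelled Empty (blue), in CPM per kilobase of transcript on a log axis. CLDN7 lies near 190 in both groups and CLDN10, CLDN11 and CLDN22 lie below 1; within a gene the groups lie close together on this scale.

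The other 12 claudins gave little or no RNA. CLDN8, CLDN14, CLDN17 and CLDN25 had 0 counts in all 6 libraries, where 3 counts, the limit a count of 0 allows, correspond to 0.0665 CPM in the shallowest library. CLDN2 (a cation pore of leaky epithelia), CLDN5 (the claudin of the blood-brain barrier), CLDN6, CLDN16 and CLDN19 (both of magnesium transport in the kidney), CLDN20, CLDN24 and CLDN34 had at most 0.166 CPM in any library and were not tested.

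Of the 12 tested claudins 1 was higher, 1 was lower and 10 did not pass, with a median log2 fold change of 0.00. CLDN9, at chr16:3012456-3014505 on the plus strand (coordinates here and below are GENCODE 29 on GRCh38), was at 10.8, 11.5 and 12.5 CPM in the libraries labelled sgZHX3-3, against 8.85, 9.24 and 9.21 CPM in Empty. All 3 labelled sgZHX3-3 lay above all 3 Empty libraries. The log2 fold change was 0.35 (SE 0.0882, edgeR adjusted p = 0.0233), and the call held in the fits without the first library labelled sgZHX3-3 or without Empty 1 and was lost in the other 4 that left out 1 library (0.29 to 0.40, adjusted p from 0.0257 to 0.0897 over the 6).

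CLDN12 is an unusual claudin that lacks the tail motif by which most claudins bind ZO proteins. It was at 142, 131 and 126 CPM in the libraries labelled sgZHX3-3, against 149, 156 and 151 CPM in Empty. The groups did not overlap, though the first library labelled sgZHX3-3 came close to the first Empty library. The log2 fold change was −0.20 (SE 0.0566, edgeR adjusted p = 0.0402), and the call likewise held only without the first library labelled sgZHX3-3 or without Empty 1 among the 6 fits with a library left out (−0.25 to −0.16, adjusted p from 0.021 to 0.169). CLDN12, at chr7:90383721-90513402 on the plus strand, overlaps the spans of CDK14 and GTPBP10 on the same strand in the annotation, so reads of these genes could have been counted together.

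CLDN1 and CLDN4 lay just outside the threshold and pointed opposite ways. CLDN1 was at 22.8, 21.7 and 19.9 CPM in the libraries labelled sgZHX3-3, against 18.2, 17.8 and 18.8 CPM in Empty (log2 fold change 0.23, SE 0.074, edgeR adjusted p = 0.0595; 0.0446 by DESeq2). CLDN4 was at 34.2, 34.0 and 37.0 CPM in the libraries labelled sgZHX3-3, against 41.2, 38.8 and 40.3 CPM in Empty (log2 fold change −0.19, SE 0.0624, edgeR adjusted p = 0.0634). Neither gene's groups overlapped. The most abundant claudins had narrow intervals around 0: −0.11 to 0.14 for CLDN7, −0.14 to 0.09 for CLDN18, −0.18 to 0.16 for CLDN15 and −0.06 to 0.26 for CLDN3.

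The non-claudin strand proteins did not pass in any case. Of OCLN, MARVELD2, MARVELD3, F11R, JAM2 and JAM3 edgeR called 0 of 6, and 0 had an unadjusted p below 0.05; DESeq2 and limma-voom also called 0. Occludin (OCLN), the first strand protein found, was at 27.2, 26.3 and 25.5 CPM in the libraries labelled sgZHX3-3, against 29.3, 28.1 and 28.1 CPM in Empty. Its groups lay apart by a small margin, with a log2 fold change of −0.11 (95% interval −0.25 to 0.02, edgeR adjusted p = 0.265). MARVELD2, which encodes tricellulin of 3-cell corners, averaged 39.7 ± 1.11 CPM in the libraries labelled sgZHX3-3 and 41.1 ± 3.29 CPM in Empty, and its relative MARVELD3 25.4 ± 1.38 and 25.7 ± 0.952 CPM (SD, n = 3 each). F11R, the gene of the adhesion molecule JAM-A, was the most abundant of them at 230.3 ± 4.13 CPM in the libraries labelled sgZHX3-3 and 235 ± 1.60 CPM in Empty. JAM3 was at 91.4 ± 0.853 and 89.6 ± 5.77 CPM. JAM2 was nearly silent, at 0.388 ± 0.0973 and 0.592 ± 0.168 CPM, and its interval, −1.31 to 0.05, leaves a change of either small or large size possible at this depth. In the annotation MARVELD3, JAM2 and JAM3, like CLDN10, CRB3 and OVOL2, overlap a gene on the opposite strand, whose reads could be among their counts. F11R overlaps AL591806.3 on its own strand. Same-strand overlaps also join OVOL2 to SNX5 (12002 bases), CLDN11 to AC026316.5 (35866), KRT7 to KRT86 (2887) and MUC1 to AL713999.1 (1449). The counts of these members could hold reads of those genes or miss some.

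Of the 8 plaque and polarity genes tested, CGNL1 and PARD3 were higher, 0 were lower and 6 did not pass in edgeR (4 had an unadjusted p below 0.05, and 7.11% of all genes tested were higher and 4.98% lower). With the trend on gene span described below removed, 1 of the 8 was higher. Before that step, the median log2 fold change was 0.15. CGNL1 encodes paracingulin, a plaque protein that links the junction to the cytoskeleton. It was at 61.8, 67.1 and 66.2 CPM in the libraries labelled sgZHX3-3, against 51.1, 51.4 and 50.5 CPM in Empty. Every library labelled sgZHX3-3 lay about 10 CPM or more above every Empty library, and the Empty libraries differed by less than 1 CPM. The log2 fold change was 0.35 (SE 0.0559, edgeR adjusted p = 0.00186) and held in all 6 fits that left out 1 library. CGNL1 lies at chr15:57375967-57550727 on the plus strand.

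PARD3, the scaffold of the PAR polarity complex, was at 51.2, 57.8 and 52.1 CPM in the libraries labelled sgZHX3-3, against 41.4, 40.7 and 41.2 CPM in Empty. The groups were again well apart, and the Empty libraries again agreed within 1 CPM. PARD3 had a log2 fold change of 0.39 (SE 0.0619, edgeR adjusted p = 0.00188), and the call held in all 6 fits that left out 1 library. PARD3 spans 706 kb, from 34109560 to 34815325 of chromosome 10 on the minus strand, and is the only one of the 46 tested genes longer than 300 kb. Long genes in general were higher in these libraries: of 657 tested genes over 300 kb, 212 (32.3%) were higher and 3 lower, with a median log2 fold change of 0.19. With the trend of fold change on gene span removed, an alternative chosen after the data were seen, PARD3 was at 0.15 and did not pass (adjusted p = 0.124), whereas CGNL1 was at 0.30 and did.

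The PARD3 partners PARD6A and PARD6B did not pass in edgeR. PARD6A was at 11.7, 12.2 and 12.3 CPM in the libraries labelled sgZHX3-3, against 10.8, 10.2 and 10.9 CPM in Empty (log2 fold change 0.18, SE 0.0805, edgeR adjusted p = 0.153). PARD6B was at 10.8, 11.2 and 8.96 CPM in the libraries labelled sgZHX3-3, against 11.6, 14.0 and 13.1 CPM in Empty (log2 fold change −0.33, SE 0.104, edgeR adjusted p = 0.0556; 0.0298 by DESeq2). Both genes encode PAR6 adaptors, and their values pointed opposite ways; the difference between them was not tested.

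The remaining plaque genes did not pass either. TJP1, the gene of ZO-1, averaged 105 ± 6.69 CPM in the libraries labelled sgZHX3-3 and 104 ± 13.7 CPM in Empty, and TJP3 (ZO-3) 7.99 ± 1.31 and 6.81 ± 0.989 CPM. Cingulin (CGN), the relative of paracingulin, was at 62.3 ± 3.04 and 57.1 ± 2.25 CPM, with a log2 fold change of 0.13 (95% interval −0.00 to 0.25). CRB3, the Crumbs protein of the apical membrane, was at 45.1 ± 1.88 and 43.8 ± 1.97 CPM (SD, n = 3 each).

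**Figure D3:**
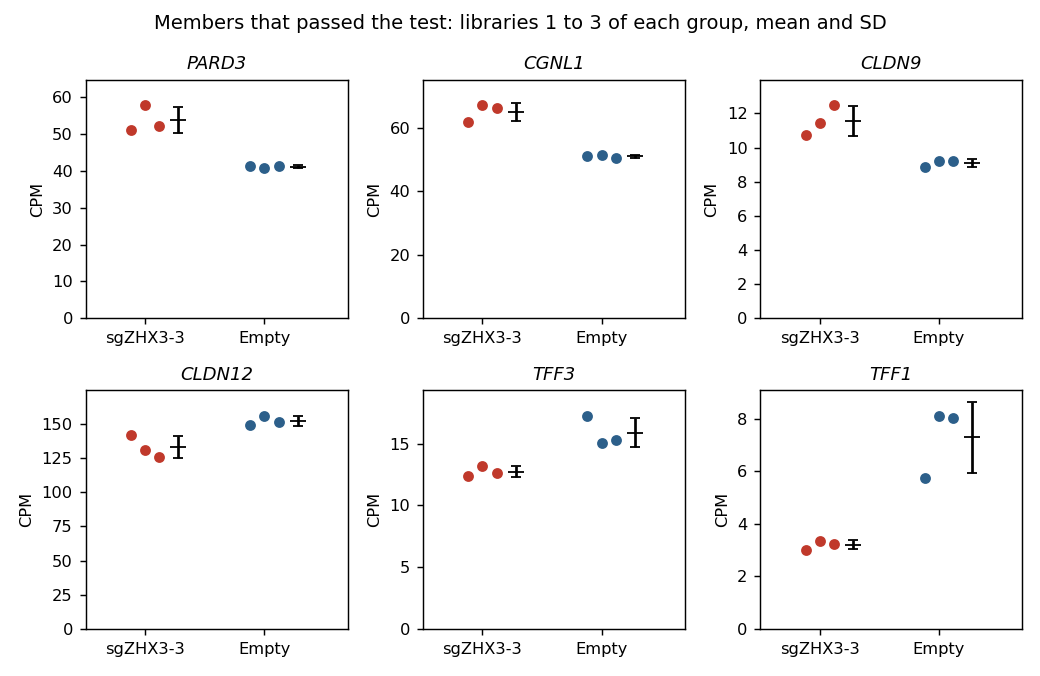
CPM of the 6 genes that passed the test, in libraries 1 to 3 labelled sgZHX3-3 (left, red) and Empty (right, blue), with the mean and SD of each group beside the points; each axis starts at 0. In the libraries labelled sgZHX3-3, PARD3, CGNL1 and CLDN9 lie above and CLDN12, TFF3 and TFF1 below the Empty libraries, with no overlap of the groups, and Empty 1 of TFF1 (5.75) lies below the other Empty libraries.

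Promoter sequence was available for 29 of the 46 tested genes, as windows from 250 bases before to 50 bases after an annotated start (RefSeq, GRCh38.p14), and of the 6 genes that passed it was available for CGNL1 and CLDN12. The windows were searched on both strands for CCAAT, the core of the NF-Y box, and for CAGGTG, the E-box that SNAI and ZEB repressors of epithelial genes bind. The TATA box (TATAAA), a FOXA motif (TGTTTAC), a grainyhead motif (AACNNGTT) and the antioxidant response element (TGACNNNGC) were searched too, with N for any base. CAGGTG was in a window of 16 of the 29 genes (55.2%), against 24.1% of 27305 genes with a window, and 0 of these 16 were among the genes that passed. Their median log2 fold change was 0.03, and that of the 13 without it −0.01. CCAAT was in 12 of the 29 (41.4%, against 39.7% of all genes). The antioxidant response element was in 7 of the 29 (24.1%, against 16.1%), of which 1, CLDN12, passed. The TATA box was in 2 (6.90%, against 14.0%), the FOXA motif in 2 (6.90%, against 4.19%) and the grainyhead motif in 1 (3.45%, against 4.36%). Among the motifs searched, CAGGTG thus stood furthest from its share over all genes. A gene counted if any of its windows matched, so genes with several annotated starts had more chances of a match. The 27305 genes were not limited to tested genes, so these shares compare unlike sets. A match is a run of letters only and was not tested as a binding site. The windows shown are those of the 2 genes that passed and, for contrast, of CLDN7 and CRB3. CLDN7 and CRB3 had several CAGGTG matches and near-equal levels in both groups. Each window runs 5′ to 3′ along the gene's strand, with CCAAT and CAGGTG, read on either strand, in capitals. Positions are numbered with the start site as 1 and no position 0. CLDN12 has 1 CCAAT at −207 and, not in capitals, an antioxidant response element at −36. CGNL1 has neither CCAAT nor CAGGTG. The CLDN7 window shown has E-boxes at −174, −135, −20, −9 and 6, and that of CRB3 at −228, −208, −147, −89 and −60. A second CLDN7 window, not shown, has CCAAT at −168 and no E-box. The windows shown are chr15:57376255-57376554 (plus) for CGNL1, chr7:90403211-90403510 (plus) for CLDN12, chr17:7262429-7262728 (minus) for CLDN7 and chr19:6464021-6464320 (plus) for CRB3.
CGNL1: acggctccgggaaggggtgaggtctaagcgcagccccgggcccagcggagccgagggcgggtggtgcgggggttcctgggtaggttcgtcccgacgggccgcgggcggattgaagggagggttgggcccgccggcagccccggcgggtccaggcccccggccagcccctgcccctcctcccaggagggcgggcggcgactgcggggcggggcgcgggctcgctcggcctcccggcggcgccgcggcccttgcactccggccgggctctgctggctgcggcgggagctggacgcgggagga
CLDN12: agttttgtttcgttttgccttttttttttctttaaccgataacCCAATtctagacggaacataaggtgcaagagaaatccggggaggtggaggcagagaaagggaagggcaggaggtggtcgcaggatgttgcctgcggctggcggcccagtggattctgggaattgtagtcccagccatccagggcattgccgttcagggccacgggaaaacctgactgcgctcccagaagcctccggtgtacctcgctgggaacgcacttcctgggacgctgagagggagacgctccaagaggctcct
CLDN7: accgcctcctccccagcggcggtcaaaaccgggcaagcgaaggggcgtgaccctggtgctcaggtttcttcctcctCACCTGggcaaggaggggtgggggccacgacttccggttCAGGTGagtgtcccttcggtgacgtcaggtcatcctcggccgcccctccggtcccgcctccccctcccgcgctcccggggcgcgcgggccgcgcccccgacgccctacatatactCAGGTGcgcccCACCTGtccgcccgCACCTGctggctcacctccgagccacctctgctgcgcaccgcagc
CRB3: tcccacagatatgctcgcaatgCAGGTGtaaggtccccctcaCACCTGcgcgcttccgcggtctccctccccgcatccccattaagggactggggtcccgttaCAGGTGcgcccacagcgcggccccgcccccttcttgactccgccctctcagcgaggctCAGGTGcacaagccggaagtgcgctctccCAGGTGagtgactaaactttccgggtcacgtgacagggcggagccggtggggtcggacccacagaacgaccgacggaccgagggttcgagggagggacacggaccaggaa

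Desmosome genes ranged widely in level, from DSP at the top to PKP3 below 1 CPM, and none passed. Of DSP, DSG2, DSC2, PKP2, PKP3, PKP4 and JUP edgeR called 0 of 7, with 2 (PKP2 and PKP4) at an unadjusted p below 0.05, and DESeq2 and limma-voom called 0. Desmoplakin (DSP), which anchors keratin filaments, had the highest CPM of the 61 genes, at 1366, 1476 and 1461 CPM in the libraries labelled sgZHX3-3, against 1255, 1390.2 and 1316 CPM in Empty. The lowest library labelled sgZHX3-3 lay below the highest Empty library, and the log2 fold change was 0.12 (SE 0.0563, edgeR adjusted p = 0.186). The desmosomal cadherins DSG2 and DSC2 averaged 178 ± 10.5 and 39.0 ± 2.98 CPM in the libraries labelled sgZHX3-3, against 191 ± 8.69 and 42.5 ± 1.98 CPM in Empty. Of the plakophilins, which lie in the desmosomal plaque, PKP4 was at 87.0 ± 1.28 CPM in the libraries labelled sgZHX3-3 and 79.5 ± 2.19 CPM in Empty (edgeR adjusted p = 0.125), PKP2 at 14.1 ± 0.232 and 16.1 ± 1.16 CPM (0.132), and PKP3 at 0.788 ± 0.0574 and 0.798 ± 0.209 CPM (0.997). Plakoglobin (JUP), shared by desmosomes and adherens junctions, was at 166 ± 14.1 and 156 ± 11.8 CPM (SD, n = 3 each).

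EPCAM and the keratins of simple epithelia likewise gave 0 calls of 5 in edgeR, DESeq2 and limma-voom, with 1 (KRT18) at an unadjusted p below 0.05. EPCAM, an epithelial surface protein, was at 799.6, 794 and 754 CPM in the libraries labelled sgZHX3-3, against 830.0, 755 and 749 CPM in Empty. The groups overlapped, and the 95% interval of the log2 fold change was −0.11 to 0.13. KRT8 and KRT18, which pair into the filaments of simple epithelia, averaged 339 ± 19.6 and 135 ± 10.6 CPM in the libraries labelled sgZHX3-3, against 343 ± 14.8 and 150.3 ± 7.40 CPM in Empty. The annotated spans of these 2 genes overlap by 1084 bases on opposite strands, so part of their counts could have been shared. KRT19, a keratin of pancreatic ducts, was at 50.9, 54.7 and 53.0 CPM in the libraries labelled sgZHX3-3 and 51.4, 47.6 and 54.1 CPM in Empty, while KRT7, the other duct keratin of the list, was at 1.10 ± 0.167 and 0.95 ± 0.450 CPM (SD, n = 3 each). Of the 8 duct markers, 4 were tested and 0 passed in edgeR, DESeq2 or limma-voom, with 0 at an unadjusted p below 0.05, and their summed level was 69.3 to 73.8 CPM in the libraries labelled sgZHX3-3 and 63.7 to 71.2 CPM in Empty.

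The epithelial transcription factors did not pass. Of 3 tested, edgeR, DESeq2 and limma-voom called 0, and 2 had an unadjusted p below 0.05. ELF3, an ETS factor of epithelia, was at 98.4, 100.1 and 103 CPM in the libraries labelled sgZHX3-3, against 106, 106 and 122 CPM in Empty (log2 fold change −0.15, SE 0.063, edgeR adjusted p = 0.149). GRHL1, a grainyhead factor, was at 43.9, 46.3 and 39.6 CPM in the libraries labelled sgZHX3-3, against 47.0, 49.2 and 47.8 CPM in Empty (log2 fold change −0.15, SE 0.0663, edgeR adjusted p = 0.154). The groups of ELF3 and GRHL1 lay apart, and those of OVOL2 overlapped. OVOL2, a repressor of mesenchymal genes, was at 7.20 ± 0.238 and 7.76 ± 0.558 CPM (SD, n = 3 each). GRHL2, the grainyhead factor of many epithelia, had 0 counts in all 6 libraries.

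The trefoil peptides held the largest change. TFF1, a small secreted peptide of mucosal repair, was at 3.02, 3.35 and 3.25 CPM in the libraries labelled sgZHX3-3, against 5.75, 8.11 and 8.02 CPM in Empty. Every Empty library lay well above every library labelled sgZHX3-3, and Empty 1 was the lowest of its group. The log2 fold change was −1.19 (SE 0.142, edgeR adjusted p = 0.000302), and in the 6 fits that left out 1 library it ranged from −1.33 to −1.10 and held in all. Empty 2 and 3, the libraries with the higher summed stress genes, were also those with more TFF1. Without both of them TFF1 was at −0.84 and still passed (adjusted p = 0.0378), the only one of the 6 genes to do so with the Empty group reduced to 1 library, which is then assumed to vary like the other group.

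TFF3, its neighbour on chromosome 21, was at 12.3, 13.2 and 12.6 CPM in the libraries labelled sgZHX3-3, against 17.3, 15.1 and 15.3 CPM in Empty. The groups did not overlap, and here Empty 1 was the highest, unlike in TFF1. TFF3 had a log2 fold change of −0.32 (SE 0.0812, edgeR adjusted p = 0.0237), but the call held in only 1 of the 6 fits with a library left out, that without Empty 1 (−0.35 to −0.25, adjusted p from 0.038 to 0.073). Both genes lie on the minus strand, TFF1 at chr21:42362282-42366594 and TFF3 at chr21:42311667-42315651, and TFF2, which lies between them at chr21:42346357-42351128, had 0 counts in all 6 libraries. MUC1, a membrane mucin, was at 3.83, 3.29 and 4.07 CPM in the libraries labelled sgZHX3-3, against 2.99, 3.06 and 2.79 CPM in Empty. Its groups lay apart, in the direction opposite to the trefoil genes, and it did not pass (log2 fold change 0.34, SE 0.133, edgeR adjusted p = 0.115).

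Of the gap junction genes 2 were tested, and edgeR, DESeq2 and limma-voom called 0 (1 had an unadjusted p below 0.05). GJD2, which encodes connexin 36, was at 9.33, 9.32 and 8.18 CPM in the libraries labelled sgZHX3-3, against 8.06, 7.18 and 7.74 CPM in Empty. The groups lay apart by a small margin, with a log2 fold change of 0.22 (SE 0.0974, edgeR adjusted p = 0.153). GJB1 (connexin 32) was at 0.354 ± 0.138 CPM in the libraries labelled sgZHX3-3 and 0.478 ± 0.142 CPM in Empty (SD, n = 3 each), and GJA1 (connexin 43), widespread outside islets, had at most 0.0428 CPM in any library and was not tested.

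The calls differed in how far they held under other processing. TFF1 passed under every alternative run, CGNL1 in all but the fit without Empty 2 and 3 (log2 fold change 0.35, adjusted p = 0.0840), and PARD3 in all but that fit (0.38, 0.0899) and the one with the gene span trend removed. CLDN9, CLDN12 and TFF3 each lost the call in several alternatives, among them fits with fewer libraries and the fit without Empty 2 and 3, where they were at 0.39, −0.16 and −0.44 (adjusted p = 0.204, 0.392 and 0.0833). Their direction held in every alternative.

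**Figure D4:**
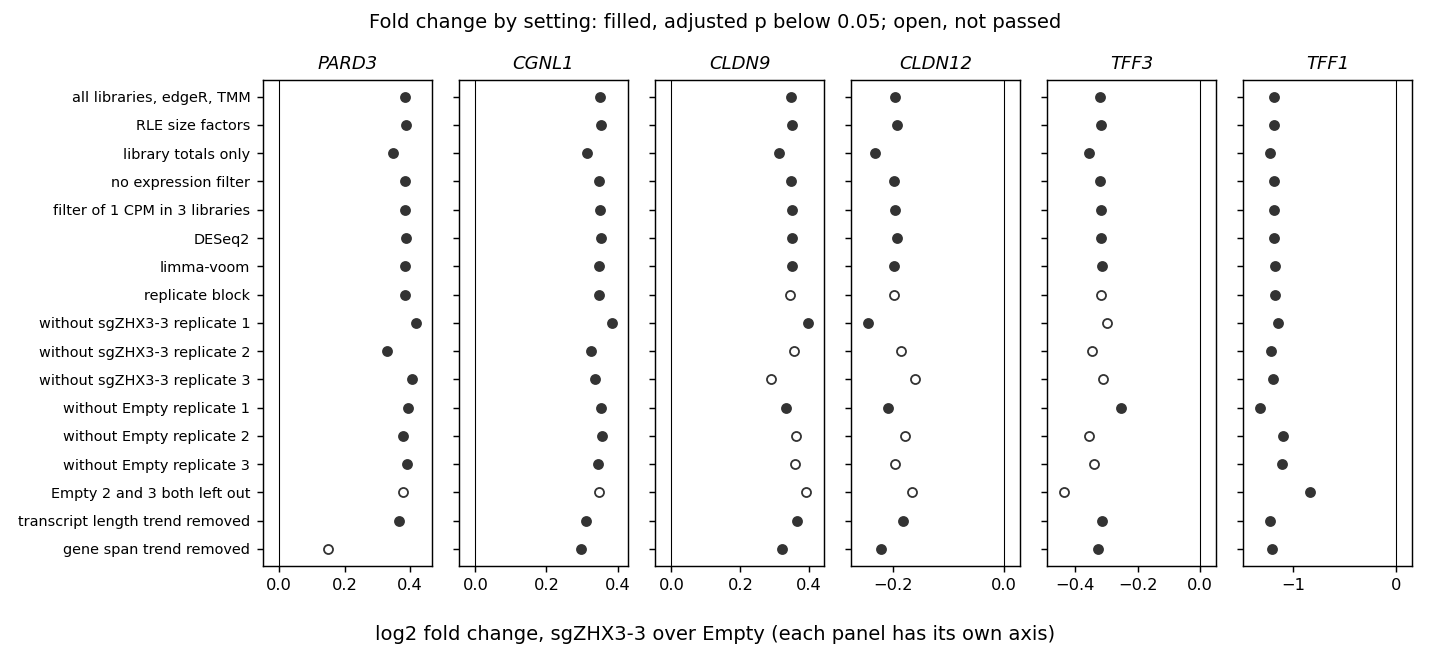
Log2 fold change (sgZHX3-3 over Empty) of the 6 genes that passed, under each normalisation, filter, test and choice of libraries, each panel with its own axis; filled points have an adjusted p below 0.05 and open points do not. No point crosses 0; TFF1 stays filled throughout, and CLDN9, CLDN12 and TFF3 turn open in several of the fits that leave out libraries.

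Other genes of the same structures were taken from lists made by function. Of 39 further tight junction and polarity genes, 36 were tested, of which 8 (22.2%) rose and 1 (2.78%) fell in the libraries labelled sgZHX3-3 (7.11% and 4.98% of all genes tested), with a median log2 fold change of 0.08. Among those with the smallest adjusted p were NECTIN1, an adhesion protein (log2 fold change 0.37, adjusted p = 0.000800), CLMP, an adhesion molecule related to CXADR (0.74, 0.00741), MPDZ, a scaffold with many PDZ domains (0.30, 0.0102), and WNK4, a kinase that acts on ion transport (0.29, 0.0104), all by edgeR. The 1 lower gene, named after its value was seen, was TJAP1, a tight junction-associated protein gene (−0.21, adjusted p = 0.0368). Of the 4 higher genes named, NECTIN1 and CLMP held in all 6 fits with a library left out. Without both Empty 2 and 3, NECTIN1, CLMP and WNK4 lost the call (log2 fold changes 0.32, 0.92 and 0.27). MPDZ was lost without the second library labelled sgZHX3-3 or Empty 3 (adjusted p = 0.0672 and 0.0576), and WNK4 without Empty 2 or Empty 3 (0.0614 and 0.0555). TJAP1 held in 2 of the 6 fits (adjusted p from 0.0208 to 0.172). It lost the call with the gene span trend removed, where 0 genes of the list were lower. The count of higher genes was 5 with the gene span trend removed and 1 without Empty 2 and 3.

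The calls in the remaining, shorter lists stand beside 12.1% called among all genes tested. Among the further desmosome and keratin genes 8 were tested, of which KRT80 was higher (log2 fold change 0.43, edgeR adjusted p = 0.0140) and PERP, a desmosome-associated membrane protein gene, was lower (−0.18, 0.0346). Among further connexins and pannexins 5 were tested, of which PANX2, a pannexin gene, was lower (−0.42, adjusted p = 0.0318). Of 17 further epithelial factors and surface proteins tested, TFCP2L1 was higher (0.34, adjusted p = 0.0275), while KLF5 (−0.21, 0.0341) and CLDND1, a claudin-domain gene outside the CLDN numbering (−0.27, 0.0226), were lower. KRT80 held in all of the 6 fits that left out 1 library but that without the second library labelled sgZHX3-3 (0.41, adjusted p = 0.0690). PERP, PANX2, TFCP2L1, KLF5 and CLDND1 each lost the call without the second library labelled sgZHX3-3 or Empty 3, among others, with adjusted p up to 0.156, 0.132, 0.131, 0.161 and 0.0986.

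Of the 7 transcription factors that drive epithelial cells towards a mesenchymal state, SNAI2 and TWIST2 had 0 counts in all libraries and 4 were tested. SNAI1, a repressor that binds CAGGTG, was at 0.38, 0.18 and 0.0996 CPM in the libraries labelled sgZHX3-3, against 0.385, 0.896 and 1.69 CPM in Empty. The first library labelled sgZHX3-3 and Empty 1 were nearly equal, and Empty 2 and 3 lay above all others. The log2 fold change was −2.23 (SE 0.571, edgeR adjusted p = 0.0308), and without Empty 2 and 3 it was −0.86 (adjusted p = 0.613). It was also lost without any 1 of libraries 2 and 3 labelled sgZHX3-3, Empty 2 and Empty 3 (−2.30 to −1.63, adjusted p from 0.0728 to 0.128). ZEB1 was at means of 4.68 CPM in the libraries labelled sgZHX3-3 and 5.11 CPM in Empty and did not pass (adjusted p = 0.545).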

How the data were processed

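RNA was measured in 6 EndoC-βH1 libraries, made with a stranded directional kit, per the labels' protocols. STAR (build hg38) and featureCounts are the tools named, per the submitters' processing notes, with no version, annotation or strand setting. The authors deposited whole-number counts by gene symbol, not normalised, per the file headers and as the values show. No value column lacked a sample.

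From these counts, genes were kept by filterByExpr of edgeR (minimum count 10, minimum total 15), which left 16199, and library sizes were scaled by TMM (factors 0.984 to 1.02). CPM values use these sizes. Groups were compared with glmQLFTest of edgeR (robust, no covariate), Benjamini-Hochberg adjusted over all genes tested and called at 0.05. The SE of a fold change comes from its F statistic. Coordinates and transcript lengths came from GENCODE 29, in which 23900 of 26485 symbols (90.2%) matched; 6 context genes were found under older symbols. Any member could be named, and from each context list up to 5 called genes with the smallest adjusted p. The members and lists were chosen with earlier results of these data known. Some genes of these lists are left out of the text. The procedure was tested on simulated counts. There it recovered 49.3%, 74.6% and 87.9% of the genes changed 1.25-fold, 1.5-fold and 2-fold. Of its 156 calls, 15 were false. Same-numbered libraries of the 2 groups did not deviate together, so the replicate block was an alternative only; the others were scalings, filters, DESeq2, limma-voom, left-out libraries and length trends. The limit given for a count of 0 covers counting error only. The analysis ran in R 4.3.3 (with edgeR 4.0.16, DESeq2 1.42.0 and limma 3.58.1) and in Python 3.11.15 with matplotlib 3.10.9.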

Additional observations from a re-analysis of the deposited data

How the results depend on the processing

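Of the 6 epithelial genes called, all kept their direction under every alternative run. Among the other 40, sign changes occurred in 16 genes, none of which passed in any alternative. Counts (main values 1151 higher and 807 lower for all genes, 3 and 3 for the epithelial genes, 11 and 6 for the other listed genes of the same structures, median log2 fold change −0.01) moved as follows, and the cause was not tested.

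With library totals only, 1272 genes and 5 epithelial genes were lower, the median of the epithelial genes was −0.044, and CLDN7 (−0.021), JAM3 (−0.0071), TJP1 (−0.024) and EPCAM (−0.027) changed sign. At an adjusted p below 0.01, 467 genes were higher and 194 lower, 1 epithelial gene was lower, and 3 further listed genes were higher and 0 lower. PKP3 changed sign with RLE size factors (0.00010) and limma-voom (0.041). With the transcript length trend removed, 5 epithelial genes were lower, and CLDN15 (0.0047), MARVELD3 (0.00032), TJP1 (−0.031), PKP3 (0.017) and KRT8 (0.0036) changed sign. With the gene span trend removed, 3 further listed genes were lower, and CLDN18 (0.0021), MARVELD3 (0.0067), F11R (0.0029), TJP1 (−0.090), PKP3 (0.016) and KRT8 (0.014) changed sign.

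Same-numbered libraries of the groups correlated at −0.138, 0.0685 and −0.142 in their deviations, so they share only a number, and not every library correlated best with its own. With the replicate number as a block, 516 genes were higher and 239 lower, 1 epithelial gene was lower (TFF1, −1.18, adjusted p = 0.0039), 5 further listed genes were higher and 0 lower, and PKP3 was at 0.0032. The block ended the calls of CLDN9, CLDN12 and TFF3 (adjusted p = 0.0748, 0.113 and 0.0888) and, among the further genes named, of KRT80, PERP, PANX2, TFCP2L1, KLF5, CLDND1 and SNAI1 (adjusted p = 0.0710, 0.108, 0.0936, 0.0791, 0.103, 0.0705 and 0.0779). TJAP1 lost its call as well, as 0 of the further tight junction and polarity genes were lower with the block.

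Without both Empty 2 and 3, 209 genes were higher and 40 lower, 0 epithelial genes were higher and 1 lower, 1 further listed gene was higher and 0 lower, and the median was −0.027. Signs then changed for CLDN3 (−0.018), CLDN7 (−0.090), MARVELD2 (0.072), MARVELD3 (0.0030), JAM3 (−0.060), JUP (−0.017), KRT7 (−0.38), EPCAM (−0.083) and OVOL2 (0.0089).

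Leaving out each library in turn gave 474 to 1792 higher and 184 to 1499 lower genes, 1 to 4 lower epithelial genes, 4 to 12 higher and 0 to 7 lower further listed genes, and a median from −0.039 to 0.018. Log2 fold changes then ranged from −0.11 to 0.035 for CLDN15, −0.058 to 0.019 for MARVELD3, −0.085 to 0.099 for TJP1, −0.059 to 0.024 for KRT8, −0.015 to 0.061 for EPCAM, −0.11 to 0.24 for CLDN10, −0.22 to 0.14 for PKP3, −0.058 to 0.018 for CLDN18, −0.021 to 0.074 for CLDN7, −0.064 to 0.65 for KRT7, −0.11 to 0.0058 for MARVELD2 and −0.014 to 0.078 for JAM3.

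The intervals of 13 of the 46 genes reach past 0.5 in log2 size; the widest are those of the low-count genes CLDN10, CLDN11, CLDN22, JAM2, PKP3, KRT7 and GJB1. Calls at a log2 size near 0.2 to 0.4 rest on the small spread between these 6 libraries, which the labels do not tie to separate lines.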
